A study of Rattus norvegicus with 9 samples.

Results

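The genes described here encode the non-collagenous matrix of cartilage and the factors that direct its formation. They are Acan, Hapln1, Matn1, Matn3, Comp, Chad, Ihh, Sox9, Sox5 and Sox6, taken as the probe sets that the platform annotation assigns to 1 of these genes alone. Of the 10 genes, 7 had such a probe set, and they had 11 probe sets out of the 31042 tested. Matn3, Sox5 and Sox9 were not analysed here. RNA from whole bone was compared between the skull (calvaria, 4 arrays, the flat bones of the vault) and the limb (ulna, 5 arrays, a long bone of the forelimb) in male CD rats of 110 g that had received no treatment. The comparison asks how the basal expression of these genes differed between 2 bones of unlike origin and loading. According to the methods of the study the bones were cleaned of soft tissue, and sutures and epiphyses were cut away. Each extract was made from a pool of rats, so that a replicate is a pool and its p-values measure the spread between pools. The methods describe 5 groups of 4 rats for skull and limb RNA, so pools of the 2 sites may share rats. The test between sites treated all pools as independent.

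In a growing long bone, cartilage is laid down first and is then replaced by bone at the growth plate, whereas the vault of the skull forms largely without a cartilage model. Aggrecan, the product of Acan, is the large proteoglycan that holds water in cartilage, and it is fixed to hyaluronan by the link protein encoded by Hapln1. Matrilins and Comp, a member of the thrombospondin family, connect collagen fibrils with the other matrix molecules, and Chad encodes a small leucine-rich repeat protein that binds cells and collagen. The Sox9, Sox5 and Sox6 proteins are transcription factors needed to form chondrocytes, and Ihh is the hedgehog ligand secreted by chondrocytes as they begin to enlarge.

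The labels were compared with the data first. For ulna 1 to 4 the tissue entry of the labels reads calvaria, although title and source name read ulna. The summed signal of 6 probe sets for limb position markers was 25.1 to 55.6 on the skull arrays and 317 to 422 on all 5 limb arrays, and that of 4 probe sets for skull position markers was 309 to 446 in the skull and 132 to 181 in the limb. Osteoblast markers summed to between 34803 and 44494 in the skull and between 27434 and 40403 in the limb. Signals are MAS5 intensities scaled to a common array median, the median over all probe sets and arrays being 33.8. As a gauge of low signal, the brightest of 3 probe sets for a bacterial control (trp) reached 8.34.

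Comp, Chad and Sox6 were lower in the skull, and no probe set of these genes was higher. A probe set was called when limma's p, adjusted over all probe sets, was below 0.05 and the means differed by at least 2-fold. Of the 11 probe sets 3 were called lower in the skull, against 3.36% of all probe sets tested, and 0 were called higher, against 2.89% of all. Without the 2-fold threshold 6 of the 11 passed in the lower direction (11.9% of all probe sets), and the same 6 had every skull array below every limb array (11.8% of all). Without calvaria 1 the number called lower was 5, and with log2(signal + 16), which compresses low signals, it was 1. The 6 were both probe sets of Acan, both of Sox6, and those of Comp and Chad. The median log2 difference, skull minus limb, was -0.83 over the 11 probe sets and -0.01 over all probe sets. In whole bone, fewer cells of a type and less RNA per cell cannot be told apart.

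The sequences before the RefSeq starts of these 4 genes are printed because their signals were all lower in the skull. Each is the 250 bases upstream of the start in the GRCr8 assembly, written 5′ to 3′ on the strand of the gene. Comp lies at chr16:19089549-19089798 (minus strand), Chad at chr10:80008795-80009044 (plus), Sox6 at chr1:179665372-179665621 (minus) and Acan at chr1:142390701-142390950 (plus). Capitals mark the 1 match to the motifs that were searched.
Comp: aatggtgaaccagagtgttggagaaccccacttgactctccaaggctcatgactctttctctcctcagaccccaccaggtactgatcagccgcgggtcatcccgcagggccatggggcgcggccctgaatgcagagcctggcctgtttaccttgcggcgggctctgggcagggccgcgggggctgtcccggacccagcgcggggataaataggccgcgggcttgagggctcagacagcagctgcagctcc
Chad: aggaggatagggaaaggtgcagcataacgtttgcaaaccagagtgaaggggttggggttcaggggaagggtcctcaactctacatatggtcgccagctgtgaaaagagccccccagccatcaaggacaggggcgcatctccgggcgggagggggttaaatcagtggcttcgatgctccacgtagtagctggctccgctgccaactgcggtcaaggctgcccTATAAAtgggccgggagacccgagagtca
Sox6: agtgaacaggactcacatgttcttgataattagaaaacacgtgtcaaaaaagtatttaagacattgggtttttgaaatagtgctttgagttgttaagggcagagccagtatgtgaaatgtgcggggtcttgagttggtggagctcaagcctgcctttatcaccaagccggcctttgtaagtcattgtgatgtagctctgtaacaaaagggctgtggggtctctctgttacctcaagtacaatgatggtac
Acan: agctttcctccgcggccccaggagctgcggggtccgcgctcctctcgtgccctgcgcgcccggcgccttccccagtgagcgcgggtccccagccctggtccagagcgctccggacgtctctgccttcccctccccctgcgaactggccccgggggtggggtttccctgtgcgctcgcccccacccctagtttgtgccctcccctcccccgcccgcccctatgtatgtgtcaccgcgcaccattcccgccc
Motifs were searched on both strands. The letters searched for Sox factors were AACAAT, and 10.3% of 33469 promoter windows of the same length held them. For GATA factors they were AGATAA, held by 10.3% of the windows, and for a TATA box TATAAA, held by 12.9%. The only match was the TATA box on the strand of the gene in Chad, which begins 29 bases before the start and overlaps no other motif. A match is a description of these letters, not of a bound site. Base composition differed widely among the 4 windows. The Acan window had 73.6% G and C and 24 CpG pairs, the Comp window 64.8% and 14, the Chad window 58.4% and 11, and the Sox6 window 42.8% and 3, against a median of 51.2% G and C over all windows (quartiles 44.0% and 60.0%).

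Sox6 showed the largest difference of the 7 genes. The signal of Sox6 probe set 1393376_at was 21.2, 16.7, 17.2 and 17.4 on skull arrays 1 to 4, and 60.0, 52.8, 64.0, 50.9 and 54.0 on limb arrays 1 to 5. The sites did not come near each other, with the brightest skull array far below the dimmest limb array. Its mean was 18.1 ± 2.06 in the skull (SD, n = 4) and 56.4 ± 5.47 in the limb (SD, n = 5), a skull to limb (S:L) ratio of 0.322. The log2 difference was -1.64 ± 0.13 (SE, 95% interval -1.94 to -1.33, limma adjusted p = 6.84e-05), and this call held under all 19 alternative settings and left-out arrays.

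The second probe set of Sox6, 1381489_at, gave 96.4, 77.8, 66.5 and 81.6 on the skull arrays and 172, 154, 135, 156 and 179 on the limb arrays. Again no skull array reached the limb range. The means were 80.5 ± 12.3 in the skull and 159 ± 17.0 in the limb, an S:L ratio of 0.506. With a log2 difference of -0.99 ± 0.12 (limma adjusted p = 0.000427) it was just short of 2-fold and passed on p alone. It passed both thresholds without calvaria 1 (-1.08) or without ulna 3 (-1.05).

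The 2 probe sets of Sox6 thus did not differ between sites to the same extent. Within each array the log2 ratio of 1381489_at to 1393376_at was 1.95 to 2.23 in the skull and 1.08 to 1.73 in the limb. The difference between sites was 0.65 on the log2 scale (exact permutation test over arrays, two-sided p = 0.0159, the smallest this design gives, adjusted p = 0.0317 over the 2 pairs tested). For the 2 probe sets of Acan the same ratio was -0.22 to 0.41 in the skull and -0.02 to 0.62 in the limb (difference -0.17, exact permutation p = 0.365, adjusted p = 0.365). These pairs were chosen after their values had been seen.

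**Figure D1:**
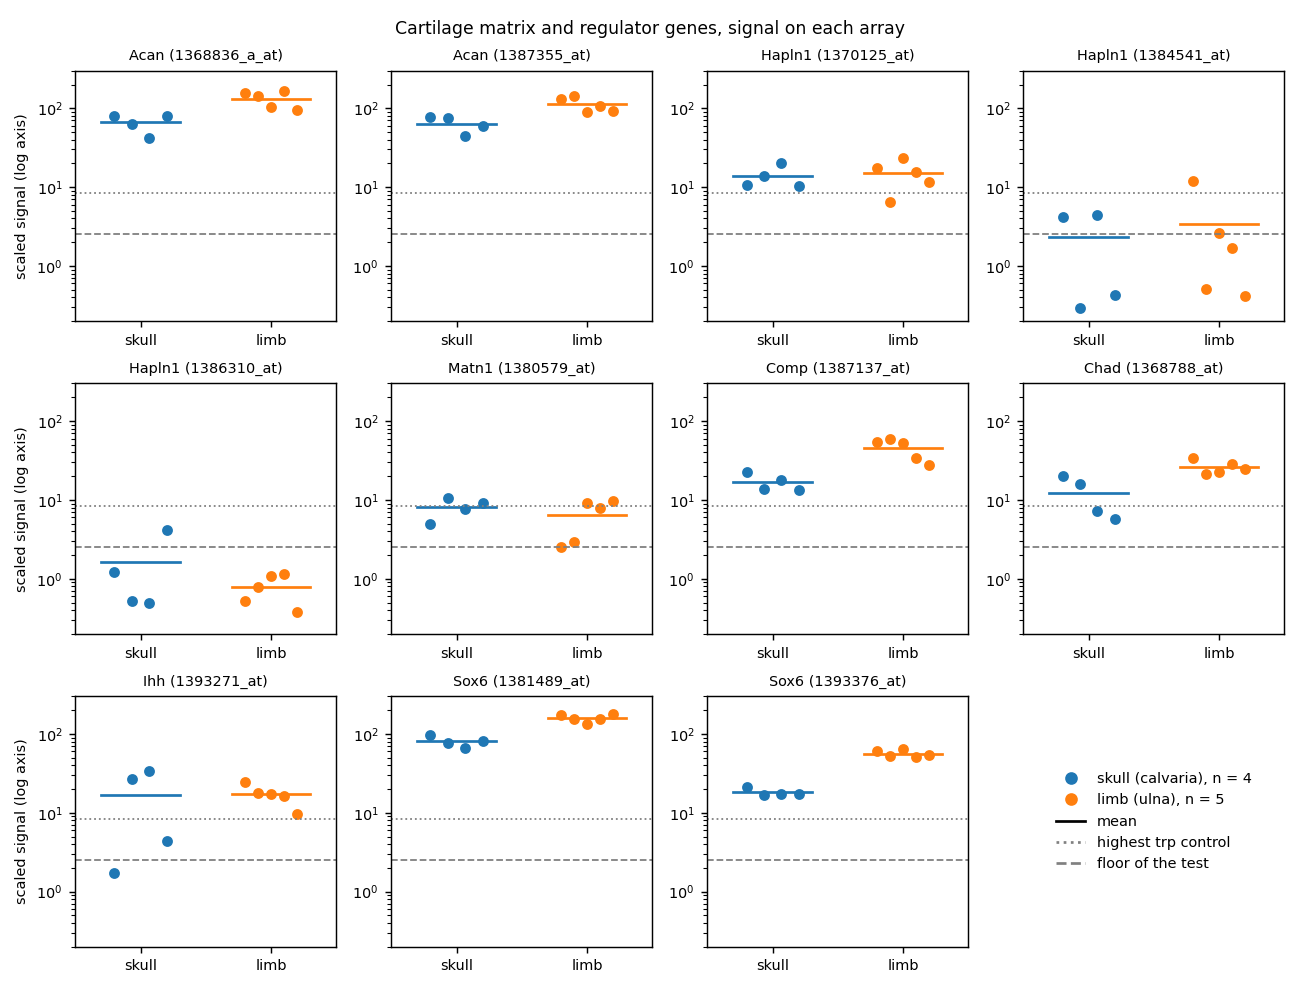
Scaled signal (log axis) of each of the 11 probe sets on the skull arrays (left, n = 4) and the limb arrays (right, n = 5). Points are arrays, solid lines are means, the dotted line is the highest trp control signal (8.34) and the dashed line the floor applied before the test (2.51). Both probe sets of Acan and of Sox6, and those of Comp and Chad, have all skull points below all limb points.

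Sox6 protein acts with Sox5 in chondrocytes, and in the mouse it is also known to act in red cell precursors and in skeletal muscle fibres. Markers of both of these lineages were lower in the skull. Of 11 erythroid probe sets 9 were called lower, and their summed signal was 12407 to 12952 on the skull arrays and 17690 to 23227 on the limb arrays. Of 17 skeletal muscle probe sets 11 were called lower, with sums of 2038 to 2423 in the skull and 10506 to 24946 in the limb. These sums understate the typical gap, as the median log2 difference was -5.71, with 6 probe sets not called. The sarcomere gene Tnnc2 was at or below the trp level on all 4 skull arrays, while Klf1, a defining factor of red cell precursors, had signals of 341 to 508 in the skull and 1372 to 1562 in the limb. Gata1, another such factor, had 114 to 166 in the skull and 438 to 551 in the limb. The part of these lineages in the lower Sox6 signal was not tested. On the limb arrays, the muscle sum was highest on ulna 1 and lowest on ulna 5, and the erythroid sum was highest on ulna 3 and lowest on ulna 4. Sox6 probe set 1393376_at was highest on ulna 3 and lowest on ulna 4, as the erythroid sum was, and 1381489_at was highest on ulna 5 and lowest on ulna 3. On the skull arrays the orders differed, with 1393376_at highest on calvaria 1 and lowest on calvaria 2. The erythroid sum was highest there on calvaria 4 and lowest on calvaria 3. These orders rest on 4 or 5 arrays and were not tested.

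Comp was lower in the skull by a similar margin. Its signal was 22.4, 13.8, 18.0 and 13.2 on the skull arrays and 54.5, 59.4, 52.6, 33.6 and 28.1 on the limb arrays. The sites did not overlap, although ulna 4 and ulna 5 lay well below the other limb arrays. The means were 16.8 ± 4.30 in the skull and 45.6 ± 13.9 in the limb, an S:L ratio of 0.369, and the log2 difference was -1.41 ± 0.28 (95% interval -2.05 to -0.77, limma adjusted p = 0.00661). The call held when any 1 array was left out (-1.57 to -1.30) but ended with log2(signal + 16) (-0.89).

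Comp is also made by tendon and ligament cells. The summed signal of 7 tendon probe sets was 3257 to 3975 in the skull and 1954 to 2582 in the limb. Most of each sum came from the probe sets of Scx, Fmod and Tnc together. Kera and Mkx, also on the list, had no probe set naming them alone. Of the 7 probe sets, 0 were called higher (median log2 difference 0.30), and only Tnmd, a membrane protein of tendon cells, was called lower. Tnmd gave 60.4, 42.3, 26.7 and 56.3 on the skull arrays and 185, 151, 83.1, 95.8 and 71.3 on the limb arrays (log2 difference -1.31, limma adjusted p = 0.0232). Like Comp and the muscle sum, it was lowest on ulna 5. What tendon or muscle contributed to the Comp signal was not tested.

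Chad was the least certain of the 3 calls. The signal was 20.03, 16.04, 7.28 and 5.72 on the skull arrays and 34.0, 21.6, 22.5, 28.3 and 24.8 on the limb arrays. Every skull array lay below every limb array, but calvaria 1 came close to ulna 2, and calvaria 3 and 4 were at or below the trp level. The means were 12.3 ± 6.88 in the skull and 26.2 ± 5.04 in the limb, an S:L ratio of 0.467, with a log2 difference of -1.27 ± 0.39 (95% interval -2.15 to -0.38, limma adjusted p = 0.0485). The call was lost without calvaria 3 (adjusted p = 0.123), without calvaria 4 (difference -0.96), and without any single limb array (adjusted p = 0.0722 to 0.102).

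Acan was at about the same fraction of its limb level on both of its probe sets. Probe set 1368836_a_at gave 80.1, 64.0, 42.5 and 79.7 on the skull arrays and 156, 142, 104, 163 and 94.97 on the limb arrays. Probe set 1387355_at gave 76.4, 74.3, 44.6 and 59.9 on the skull arrays and 131, 143, 90.9, 107 and 91.3 on the limb arrays. On both, calvaria 3 was the lowest array of all and no skull array reached the limb range.

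The S:L ratios of Acan were 0.504 (66.6 ± 17.7 in the skull, 132 ± 30.8 in the limb) and 0.567 (63.8 ± 14.7 in the skull, 113 ± 23.7 in the limb). The log2 difference of 1368836_a_at was -0.9996 ± 0.24 (95% interval -1.53 to -0.47, limma adjusted p = 0.0148), on the very edge of the 2-fold threshold, and that of 1387355_at was -0.83 ± 0.20 (95% interval -1.28 to -0.37, limma adjusted p = 0.0169). Neither was called. The first crossed the threshold when calvaria 1, calvaria 4, ulna 3 or ulna 5 was left out (-1.11 to -1.08) and with array weights (-1.03), and the second crossed it under no alternative.

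**Figure D2:**
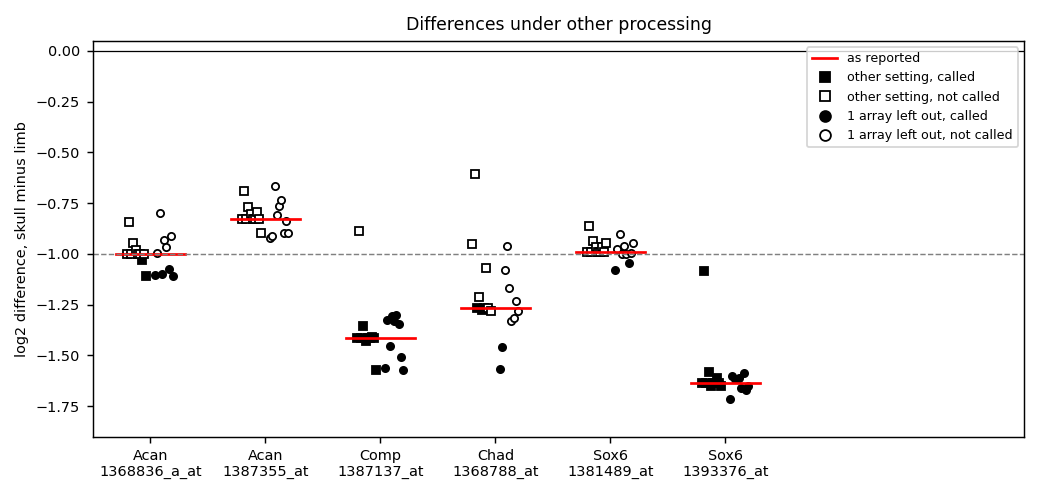
Log2 difference, skull minus limb, of the 6 probe sets that passed on adjusted p, under other settings (squares) and with 1 array left out (circles). Filled symbols passed both thresholds, the red line is the reported value and the dashed line marks 2-fold. Sox6 1393376_at is filled throughout, Comp has 1 open symbol, and the symbols of Chad are mostly open.

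Hapln1, Matn1 and Ihh passed neither threshold, and their signals were low. The brightest probe set of Hapln1, 1370125_at, gave 10.7, 14.0, 20.3 and 10.2 on the skull arrays and 17.4, 6.47, 23.2, 15.7 and 11.6 on the limb arrays (log2 difference -0.04 ± 0.40, 95% interval -0.94 to 0.86, limma adjusted p = 0.970). The ranges overlapped over most of their width. Of its other probe sets, 1384541_at was at or below the trp level on 8 of the 9 arrays (difference -0.07, limma adjusted p = 0.951) and 1386310_at on all 9 (0.18, limma adjusted p = 0.507).

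Matn1, a matrilin of cartilage, gave 4.94, 10.5, 7.74 and 9.25 on the skull arrays and 2.55, 2.97, 9.24, 7.99 and 9.56 on the limb arrays. These signals straddled the trp level at both sites, and the log2 difference of 0.49 ± 0.48 had a 95% interval of -0.60 to 1.58 (limma adjusted p = 0.551). Ihh gave 1.73, 27.0, 34.2 and 4.34 on the skull arrays and 24.8, 18.0, 17.2, 16.4 and 9.77 on the limb arrays. Its skull arrays lay on either side of the whole limb range, with a log2 difference of -0.72 ± 0.78 (95% interval -2.49 to 1.05, limma adjusted p = 0.588). These intervals include differences of more than 2-fold for Matn1 and Ihh.

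Most calls in the related lists were in the other direction, though not all of these lists are of cartilage genes. Over 7 related lists, 68 of 83 genes were measured by 103 probe sets. Of these, 10 were called higher in the skull, against 2.89% of all probe sets tested. A further 2 were called lower (1 without calvaria 3), against 3.36% of all, and 91 were not called. The median log2 difference was 0.20. Of 12 probe sets for 8 cartilage collagen genes none was called (median 0.23). Col11a1, a chain that coats fibrils and is also made in bone, gave 2814 ± 454 in the skull, against 2377 ± 155 in the limb, on its brightest probe set (log2 difference 0.23, limma adjusted p = 0.185), and Col11a2 gave 1093 ± 136 in the skull, against 760 ± 112 in the limb (0.53, limma adjusted p = 0.0148, below 2-fold). Col2a1, the main collagen of cartilage, had mean signals over its 3 probe sets of at most 20.6 in the skull and at most 21.4 in the limb. These 2 highest means came from different probe sets. Col9a1 was at or below the trp level on all 9 arrays.

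A list of chondrocyte markers, mostly the same collagens and without Acan, Comp, Chad or Sox6, held no probe set called lower in the skull. It overlaps with the related lists and adds little to them. Of 15 probe sets for 11 of 12 markers 0 were called lower and 1 higher (Cytl1), and their sum was 4163 to 5759 on the skull arrays and 3669 to 4201 on the limb arrays, mostly from Col11a1. Defining chondrocyte genes were dim at both sites, Col2a1 and Col9a1 among them.

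Among 24 probe sets for other chondrocyte and cartilage genes, 4 were called higher and 1 lower (median 0.20). Frzb, a secreted Wnt antagonist of joint cartilage and bone, was higher in the skull on both of its probe sets (118.6 ± 20.2 in the skull, against 35.8 ± 6.42 in the limb, on the first, log2 differences of 1.73 and 1.56, limma adjusted p = 0.000113 and 0.000421). Cytl1, a secreted protein of chondrocytes, averaged 53.1 ± 15.1 in the skull, against 16.4 ± 11.2 in the limb (1.99, limma adjusted p = 0.0351), a call that was lost when any 1 skull array, ulna 4 or ulna 5 was left out. Panx3, a channel protein of osteoblasts and chondrocytes named after its values were seen, was also higher (1.41, limma adjusted p = 0.000257).

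Cilp2, a matrix protein of deep articular cartilage, was the only one of these called lower. It gave 39.0, 29.4, 16.5 and 30.7 on the skull arrays and 144, 122, 71.2, 82.1 and 39.8 on the limb arrays (log2 difference -1.60, limma adjusted p = 0.0181). The sites did not overlap, but ulna 5 lay next to calvaria 1, and the call ended without calvaria 3 (adjusted p = 0.0516). The order of its limb arrays, with ulna 1 and 2 highest and ulna 5 lowest, was near that of the muscle sum, and muscle's part in it was not tested.

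**Figure D3:**
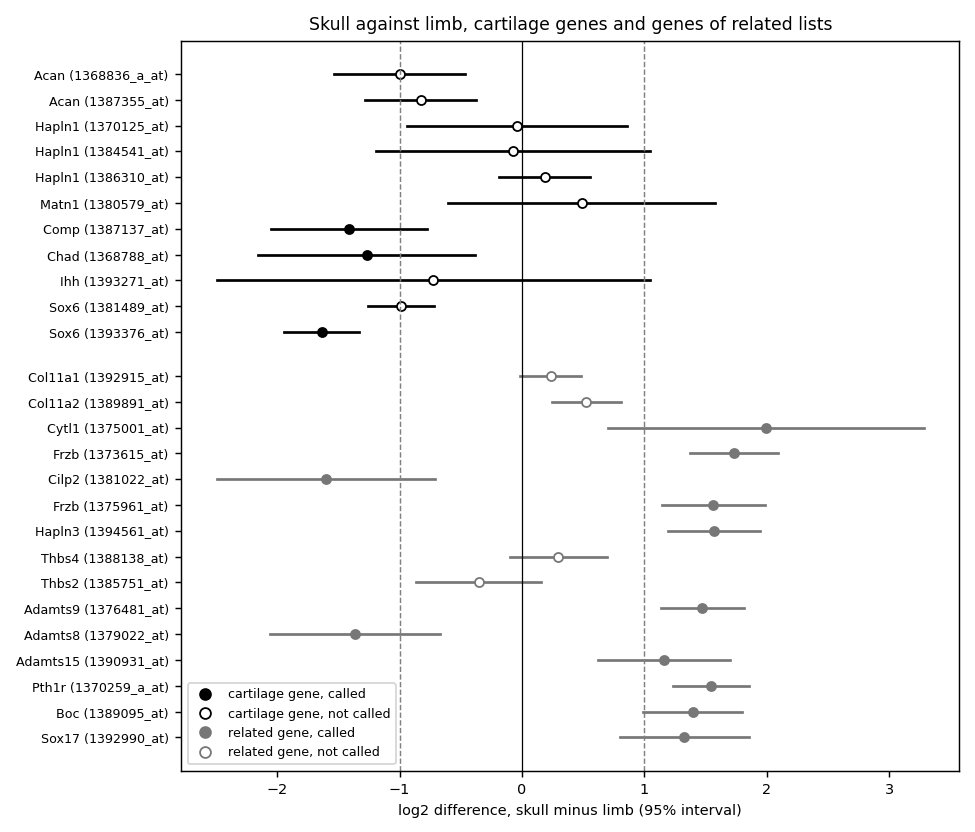
Log2 difference, skull minus limb, with its 95% interval for the 11 probe sets of the cartilage genes (black) and the 15 probe sets named from related lists (grey). Filled points passed both thresholds and dashed lines mark 2-fold. The filled black points all lie left of 0, whereas most filled grey points lie right of it, with Cilp2 and Adamts8 as exceptions.

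Relatives of aggrecan and of its partners were mostly not called. Of 18 probe sets for 8 relatives of aggrecan and link protein 1 was called (median -0.06). It was Hapln3, a link protein found outside cartilage, at 179.8 ± 45.9 in the skull, against 59.8 ± 8.75 in the limb (1.57, limma adjusted p = 0.000223). None of 4 probe sets for relatives of the matrilins and Comp was called (median -0.36), including Thbs4 (0.30) and Thbs2 (-0.35). Among 8 probe sets for the ADAMTS proteases that can cleave aggrecan (median 0.48), 1 probe set of Adamts9 (1.47) and that of Adamts15 (1.16) were higher. The other probe set of Adamts9 was not called (-0.07). Adamts8 was lower at 10.5 ± 3.66 in the skull, against 26.5 ± 6.06 in the limb (-1.37, limma adjusted p = 0.0120). Its signal was at or below the trp level on calvaria 3 and 4, and its call ended with log2(signal + 16) (-0.68). The call of Adamts15 ended without calvaria 1 (0.99) and with log2(signal + 16) (0.78).

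Genes of the hedgehog pathway, through which Ihh acts, had a median log2 difference of 0.61 over 15 probe sets, with 2 called higher and 0 lower. Pth1r, the receptor that answers the growth plate loop of Ihh and is abundant in osteoblasts, averaged 1442 ± 290 in the skull, against 489 ± 45.9 in the limb, on 1 probe set (1.54, limma adjusted p = 9.48e-05), and its other probe set was not called (0.19). Boc, a co-receptor for hedgehog ligands, averaged 257.6 ± 28.2 in the skull, against 100.2 ± 25.5 in the limb (1.39, limma adjusted p = 0.000595). Of 22 probe sets for other Sox factors 1 was called, that of Sox17, an endothelial factor (1.33, limma adjusted p = 0.00342, median of the list 0.17).

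**Figure D4:**
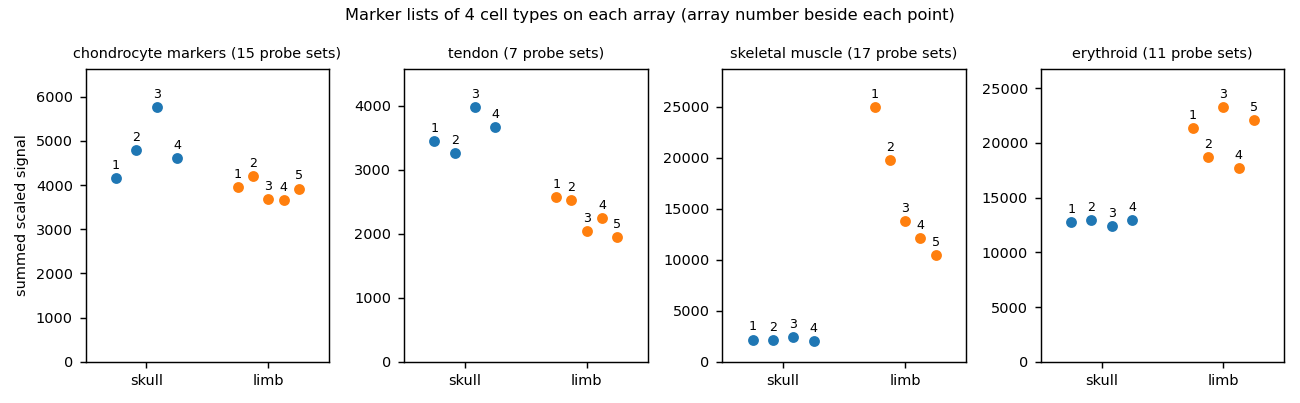
Summed scaled signal of the marker lists for chondrocytes, tendon, skeletal muscle and erythroid cells on each array, skull left and limb right, with the array number beside each point. Muscle and erythroid sums are lower on every skull array than on every limb array, and tendon sums are higher. No tendon probe set was called higher, and the chondrocyte sum of calvaria 1 lies within the limb range.

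The 3′ to 5′ ratios of the RNA integrity controls reached higher in the skull, with overlap between the sites. The log2 ratio of 3′ to 5′ control signals was 0.28 to 0.59 in the skull and 0.21 to 0.37 in the limb for Gapdh, and 0.75 to 1.04 in the skull and 0.57 to 0.86 in the limb for beta-actin. The Gapdh ratio was above every limb array on calvaria 2, 3 and 4, and the beta-actin ratio on calvaria 3 and 4, with calvaria 3 highest on both. Calvaria 3 also gave the lowest signals of Acan, of Sox6 1381489_at and of Cilp2, but not those of Comp, Chad or Sox6 1393376_at. It gave the highest signals of all arrays for Hapln3 (247) and Boc (297), both called higher in the skull. The part of RNA integrity in the lower skull signals was not tested.

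Within sites, the genes whose arrays varied most like each bright probe set of Acan and Sox6 were ranked by Pearson's r over 9 arrays, after each site's mean was removed. This is a description over few arrays that may share effects of hybridisation and dissection. Each r is the highest among many probe sets, so a high value alone means little. For Acan they were Sfrp2 (0.971), Col4a1 (0.962) and Slc25a36 (0.957) with 1368836_a_at, and Slc2a4 (0.960), Dpp4 (0.959) and Ccdc102a (0.952) with 1387355_at. For Sox6 they were Epha3 (0.960), Hmmr (0.949) and LOC102547287 (0.946) with 1381489_at, and Cox10 (0.962), Rhno1 (0.933) and Ubr2 (0.926) with 1393376_at. The nearest genes of the 2 probe sets of 1 gene had no name in common.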

How the data were processed

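Total RNA of whole bone was hybridised to Affymetrix Rat Genome 230 2.0 arrays after one-cycle labelling, 4 from the calvaria and 5 from the ulna, grouped by title. The authors deposited linear intensities, with a MAS5 signal for every probe set that they had scaled on each array. Array medians were 33.0 to 36.6. The number of arrays limits the precision.

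Of 31099 probe sets, 57 controls were left out. The platform annotation gave 1 symbol for 20826 probe sets, several for 436 and none for 9780, and 20758 matched RefSeq (GRCr8). Arrays were scaled to a common median, floored at the 10th percentile (2.51) and taken to log2, which understates differences of dim genes. Sites were compared with limma 3.58.1 under R 4.3.3 (lmFit, eBayes with an intensity trend), two-sided, with Benjamini-Hochberg adjustment over all probe sets, and the script was tested on simulated data. Ratios within arrays were compared by exact permutation (scipy 1.17.1). S:L ratios use means without the floor.

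Every gene of the set was named, with, from each related list, up to 4 called probe sets by size or else the 2 brightest, and the 3 genes nearest to each probe set whose mean signal reached the overall median. Genes outside this rule were named after their values were seen. The genes and lists were chosen with earlier results of these data known. Alternatives changed the floor, scaling, filter, variance model and arrays.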

Additional observations from a re-analysis of the deposited data

Results flagged for a closer look

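In 3 of 22 groups of arrays, 1 array lay far from the others by Dixon's test, which chance alone does in about 1 of 20 groups. That rate does not hold where several arrays are at the floor, as in both Hapln1 groups below. Gaps are on the log2 scale after the floor, whereas the values in brackets are signals. For Sox6 1393376_at, calvaria 1 (21.2) stood above the other skull arrays (16.7 to 17.4), with a gap of 0.837 of the whole range, and without it the log2 difference was -1.71 in place of -1.64. For Hapln1 1384541_at, ulna 1 (11.998) stood above the other limb arrays (0.42 to 2.64), 3 of them at the floor. The gap was 0.968 of the range, and ulna 1 was the only array above the trp level. For Hapln1 1386310_at, calvaria 4 (4.19) stood above the other skull arrays (0.49 to 1.23), all of them at or below the trp level. Its gap of 1.0 of the range was fixed by the floor, at which 3 of the skull arrays lay.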

How the results depend on the processing

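Under 10 other settings and with each of 9 arrays left out, no probe set of the cartilage genes was called higher in the skull. The number called lower was 3 as reported, 1 with log2(signal + 16) and 2 to 5 with 1 array left out, the 5 being reached without calvaria 1. All called probe sets numbered 1938, but 1032 with log2(signal + 16) and 1716 to 2047 with 1 array left out. Calls in the related lists were 10 higher (8 to 12 with 1 array left out) and 2 lower, with 1 lower under log2(signal + 16), 1 with dim probe sets left out and 1 to 3 with 1 array left out. Differences that had not been called turned sign for Hapln1 1370125_at (0.0159 with signals as deposited, 0.0204 with array weights, -0.31 to 0.15 with 1 array left out), for Hapln1 1384541_at (-0.21 to 0.37 with 1 array left out) and for Ihh (-0.72 as reported, 0.0708 with the floor at the 25th percentile). The cause was not tested. Of the values for single probe sets, 441 kept their side of the threshold, 27 lost the call, 8 gained it and 11 turned sign. Chad lost its call in 13 of its alternatives, among them signals as deposited (adjusted p = 0.0517), array weights (0.0714) and the methods' test (0.0754), all from limma or adjusted over all probe sets. Skull and limb arrays of 1 replicate number did not vary together (correlations of -0.01 to 0.04 after each site's mean was removed). This cannot show whether pools of 1 number came from the same rats. With the replicate number as a block, 1570 probe sets were called, 3 of them of the cartilage genes and lower, with Chad lost (-1.28, adjusted p = 0.108) and Acan 1368836_a_at gained (-1.11, adjusted p = 0.00598). The filter on dim probe sets removed Chad, Hapln1, Ihh and Matn1, which have no value there. Signals near the trp level limit what can be read for those 4 genes.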

Other observations

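S100b, a calcium-binding protein of chondrocytes and glia from the Schwann cell marker list, was named after its values were seen and was higher in the skull. Its signal was 124 to 152 on the skull arrays and 39.3 to 72.2 on the limb arrays, without overlap (log2 difference 1.28, limma adjusted p = 0.000829). Col27a1, a fibrillar collagen of cartilage also named after its values were seen, had no overlap either, at 58.7 to 90.0 in the skull and 26.2 to 44.2 in the limb, and passed on adjusted p without reaching 2-fold (0.93, limma adjusted p = 0.00637). Matn2, a matrilin found in many tissues, averaged 42.9 ± 15.2 in the skull, against 79.5 ± 15.5 in the limb (-0.93, limma adjusted p = 0.0226) and its site ranges overlapped.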
